A study of Mus musculus with 6 samples.

Results

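The genes described here are the 6 retinoid receptors of the mouse, the retinoid X receptors Rxra, Rxrb and Rxrg and the retinoic acid receptors Rara, Rarb and Rarg, taken by symbol from a table of 35976 genes. They were chosen with the comparison described below already known, because Rxrg stood among the lower genes with small p-values in it. Their differences between the groups are therefore given as a description. The libraries were bulk RNA-seq of amygdala neurons from male C57BL/6J mice, 3 labelled sgRosa (genotype sgRosa26, guides to a control locus) and 3 labelled sgEgfr (guides to the epidermal growth factor receptor gene). In both groups an AAV expressed Cas9 from the GfaABC1D promoter, which is active in astrocytes, so the guides were aimed at astrocytes and not at the sequenced cells. Both groups had more than 2 weeks of expression, then tube restraint over 7 days, followed by fear conditioning (1 day) and its extinction over 3 days, so neither group was free of stress. The treatment text also names sgRosa and sgAreg in microglia, and none of the 6 library titles carries these. The age of the mice is not given, and the labels do not say whether each library came from its own animal. The p-values below then measure only the spread between these libraries, which may be technical.

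Retinoid receptors are nuclear receptors that bind DNA as pairs, most often a retinoic acid receptor with a retinoid X receptor. Without ligand the pair holds corepressors at its target genes, and all-trans retinoic acid bound to the retinoic acid receptor swaps them for coactivators. The retinoid X receptors are also the shared partner of the thyroid hormone, vitamin D, PPAR, LXR and NR4A receptors, so they serve many pathways at once. In the adult forebrain RXRG and RARB are best known from medium spiny neurons of the striatum and related cells, where they are linked to dopamine receptor expression. RXRG is also known from cells of the oligodendrocyte lineage.

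Total counts ran from 2348897 to 10152812 per library, so that 3 counts, taken as the floor, stood for 0.270 to 1.25 CPM (counts scaled to library size, after TMM scaling). These floors cover at most the counting error, and may understate it. Counts of Egfr were 1, 26 and 23 under sgRosa and 6, 18 and 6 under sgEgfr, which overlapped, and RNA from enriched neurons does not check a deletion in astrocytes. The neuronal gene Rbfox3 was present in every library at 127 to 378 CPM, and the myelin gene Mbp was far above it at 7110 to 22540 CPM. RNA of other cells was thus measured together with that of neurons, and no level below is that of neurons alone. The astrocyte gene Aqp4 (2.73 to 20.5 CPM) and the oligodendrocyte precursor gene Pdgfra (7.03 to 123 CPM) were also present in all 6. The choroid plexus gene Ttr reached 3052 CPM in sgRosa replicate 3 and 1852 CPM in sgEgfr replicate 1, against 0 to 28.1 CPM in the other 4 libraries. In bulk RNA, fewer cells of a type and less RNA per cell cannot be told apart.

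The question put to these libraries was what neurons express when the astrocytes beside them carry guides to Egfr rather than to the control locus. In edgeR's quasi-likelihood test, adjusted by Benjamini-Hochberg, 0 of 13159 tested genes (0.00%) passed an adjusted p of 0.05, none of the 6 receptors among them. Before adjustment 811 genes (6.16%) had a p under 0.05, and 1 of the 6 receptors, Rxrg, was one of them. DESeq2 called 33 genes (0.251%), 31 higher and 2 lower, and limma-voom called 0 with 1980 at an unadjusted p under 0.05. No receptor was called by either. DESeq2 left the adjusted p undefined for 5114 of the 13159 genes that its share is taken over, among them Rxra, Rara, Rarb and Rarg. The 3 sgEgfr libraries lay wholly below the 3 sgRosa libraries for 7.60% of the tested genes and wholly above them for 5.80%. Among the receptors the first was the case for Rxrg alone and the second for none. All 6 receptors passed the filter on low counts. Over the 6 the log2 fold change was positive for 3 and negative for 3 with a median of -0.19, beside 46.3% positive and a median of -0.04 over all tested genes.

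Rxrg encodes the retinoid X receptor gamma, the family's most tissue-restricted member. It lies on chromosome 1 from 167598384 to 167639623 on the plus strand of GRCm38, and its exons overlap no other annotated gene. It had 145, 74 and 253 counts in sgRosa replicates 1, 2 and 3 and 73, 54 and 41 counts in sgEgfr replicates 1, 2 and 3. On the CPM scale these were 40.8, 30.9 and 22.8 in sgRosa and 15.6, 12.1 and 15.98 in sgEgfr. Every sgEgfr library lay below every sgRosa library, and sgRosa replicate 1 stood highest. The means were 31.5 ± 9.02 and 14.5 ± 2.16 CPM (SD, n = 3 each), and the spread was wider in sgRosa. The log2 fold change was -1.11 with an SE of 0.28 and a 95% interval of -1.77 to -0.46. Rxrg was number 39 of the tested genes by p, with an edgeR adjusted p of 0.781 and a DESeq2 adjusted p of 0.250. The value for Rxrg became -0.86 when sgRosa replicate 1 was left out and -1.31 when sgRosa replicate 3 was.

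The other retinoid X receptors are broadly expressed, and their genes showed no such gap. Rxra (chromosome 2, 27676440 to 27762957, plus strand) measured 10.7, 13.0 and 8.73 CPM in sgRosa and 8.74, 7.59 and 8.18 CPM in sgEgfr. The lowest sgRosa library and the highest sgEgfr library were almost level, so the groups overlapped. The log2 fold change of Rxra was -0.39 (SE 0.28, 95% interval -1.04 to 0.27), and -0.22 on leaving out sgRosa replicate 2. Rxrb (chromosome 17, 34031812 to 34038399, plus strand) measured 17.7, 12.5 and 17.7 CPM in sgRosa and 14.1, 15.6 and 18.7 CPM in sgEgfr. Its means were 15.99 ± 3.00 and 16.1 ± 2.36 CPM (SD, n = 3 each). The log2 fold change of Rxrb was 0.00 (0.0010, SE 0.26), and its 95% interval of -0.61 to 0.61 leaves room for a difference of up to that size in either direction.

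**Figure D1:**
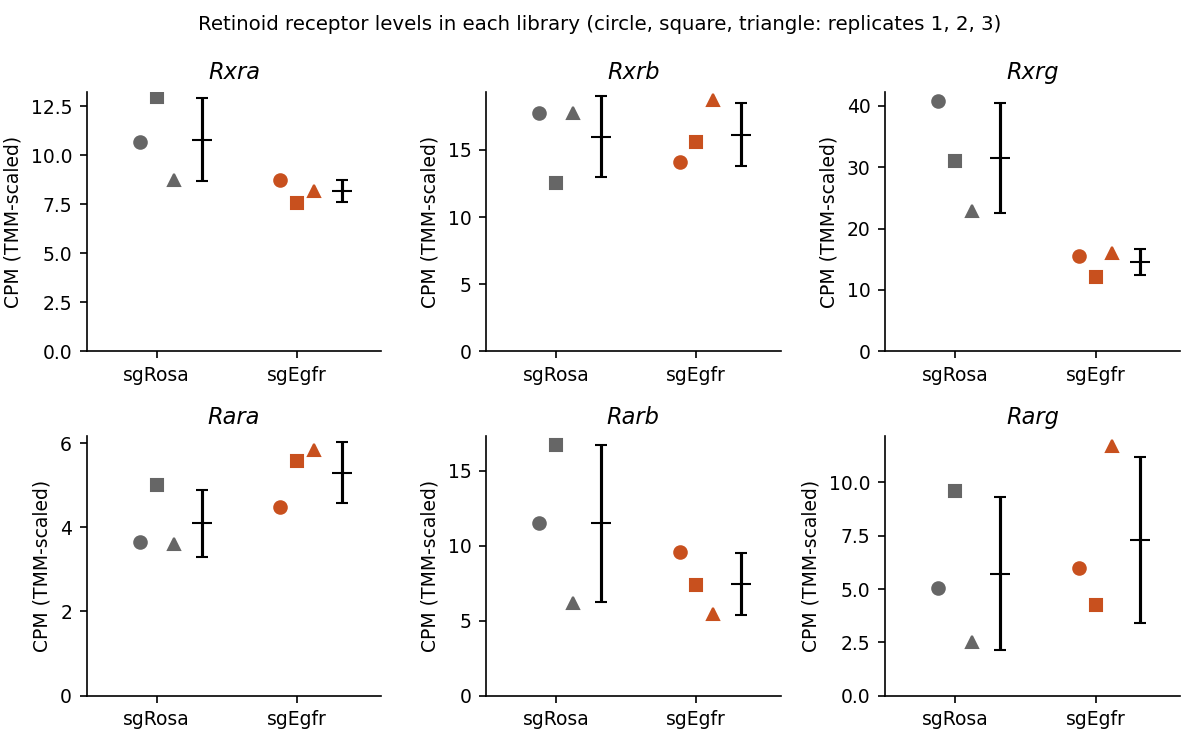
TMM-scaled CPM (vertical axis) of the 6 receptor genes in each of the 3 sgRosa (grey) and 3 sgEgfr (orange) libraries, with black bars for the mean and SD of each group. The groups do not overlap for Rxrg, with sgEgfr libraries at 12.1 to 15.98 CPM and sgRosa libraries at 22.8 to 40.8 CPM, and overlap for the other 5 genes.

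Among the retinoic acid receptors, which bind all-trans retinoic acid itself, none had separated groups. Rarb (chromosome 14, 16430839 to 16819156, minus strand) encodes the receptor beta. Its counts were 41, 40 and 69 in sgRosa and 45, 33 and 14 in sgEgfr, or 11.5, 16.7 and 6.21 CPM against 9.60, 7.36 and 5.46 CPM. The sgRosa libraries spanned the whole range of the sgEgfr libraries apart from sgEgfr replicate 3, which was lowest. The means of Rarb were 11.5 ± 5.25 and 7.47 ± 2.07 CPM (SD, n = 3 each), with a log2 fold change of -0.57 (SE 0.42, 95% interval -1.55 to 0.41). This value was -0.20 on leaving out sgRosa replicate 2 and -0.89 on leaving out sgRosa replicate 3. Over 34.1% of the Rarb exon model (1793 bases) the DNA topoisomerase gene Top2b runs on the other strand. Top2b had 153 to 613 counts per library, and where counting ignores strand its reads and those of Rarb cannot be told apart.

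Rara (chromosome 11, 98927818 to 98974942, plus strand), the receptor alpha found in most tissues, was the lowest of the 6 with 12 to 40 counts per library. It measured 3.66, 5.01 and 3.60 CPM in sgRosa and 4.48, 5.58 and 5.85 CPM in sgEgfr, and sgRosa replicate 2 stood within the sgEgfr range. The log2 fold change of Rara was 0.39 (SE 0.35, 95% interval -0.43 to 1.21). Rarg (chromosome 15, 102234938 to 102257517, minus strand), the receptor gamma known from skin and cartilage, measured 5.06, 9.61 and 2.52 CPM in sgRosa and 5.97, 4.24 and 11.7 CPM in sgEgfr. Its libraries differed among themselves more than its groups did. The log2 fold change of Rarg was 0.40 (SE 0.58), which became 0.98, -0.02, 0.69 and -0.08 on leaving out sgRosa replicate 2, sgRosa replicate 3, sgEgfr replicate 2 or sgEgfr replicate 3, in that order.

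Levels of different genes were compared per kilobase of exon model. Over all 6 libraries Rxrg averaged 10.02 ± 4.78 CPM per kb, Rxrb 4.04 ± 0.61, Rarb 1.80 ± 0.80, Rxra 1.74 ± 0.36, Rarg 1.53 ± 0.81 and Rara 1.08 ± 0.22 (SD, n = 6). Rxrg lay above Rxrb, the next in this order, in 6 of 6 libraries, by a mean log2 difference of 1.19 ± 0.71 in level per kb (SD, n = 6; exact two-sided sign-flip permutation p = 0.031, adjusted over the 5 neighbouring pairs 0.156). Rxrb lay above Rarb in 5 of 6 libraries by 1.26 ± 0.79 (exact permutation p = 0.062, adjusted 0.156). With 6 libraries the smallest p this test can give is 0.031, and after adjustment no pair passed 0.05. The order, and so the choice of pairs, came from the means of these same libraries with both groups pooled. The p-values are therefore only a description of that order. The ratio of Rxrg to Rxrb per kb was 2.22 to 4.27 in sgRosa and 1.33 to 1.91 in sgEgfr. The 3 neighbouring pairs among the 4 lower genes did not differ beyond their spread, with exact permutation p-values of 0.219 to 0.875, and pairs that were not neighbours were not tested. When the longest transcript was used as the length, Rxrg lay above Rxrb in 5 of 6 libraries, and Rarg came before Rxra.

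Per kb of exon model Rxrg was the largest member of its family in all 6 libraries (in 5 of 6 by the longest transcript), by a margin that differed between them. Rxrg made up 73.5%, 70.9% and 62.1% of the summed RXR level per kb in sgRosa and 56.9%, 49.7% and 52.9% in sgEgfr. Rxrb made up 18.5%, 16.6% and 27.9% in sgRosa and 29.7%, 37.2% and 35.8% in sgEgfr. The shares of both genes had separated groups, in opposite directions, as shares of 1 sum must when the third member is small. The summed RXR level was 24.2, 19.0 and 15.98 CPM per kb in sgRosa and 11.9, 10.6 and 13.2 CPM per kb in sgEgfr, also separated. These sums and shares hold Rxrg and so carry its choice with them. Within single libraries Rxrg exceeded Rxra by 5.68 to 9.07 times per kb in sgRosa and by 3.78 to 4.64 times in sgEgfr.

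The summed level of the 3 retinoic acid receptor genes was 4.22, 6.58 and 2.60 CPM per kb in sgRosa and 4.25, 3.67 and 5.12 CPM per kb in sgEgfr, which overlapped. Rarb held 45.4 to 52.0% of that sum in sgRosa and 20.2 to 42.9% in sgEgfr, and the 2 ranges did not meet. The lowest share, 20.2%, was that of sgEgfr replicate 3, the library where Rarg was highest and held 53.6%. Rarb rests on 14 counts in that library.

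**Figure D2:**
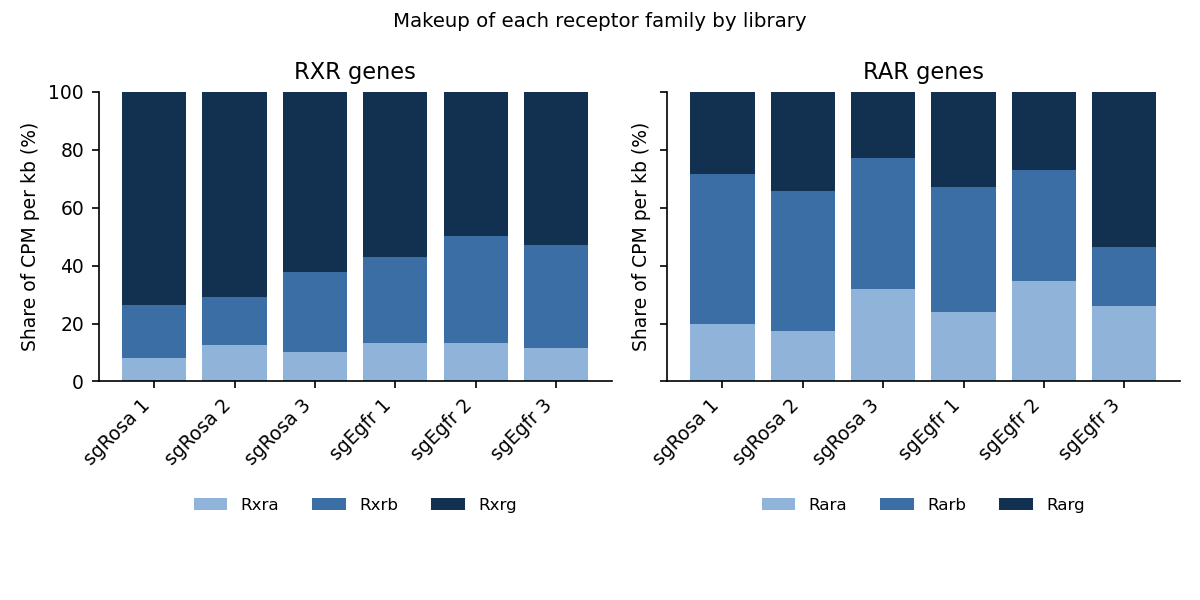
Stacked bars give the share (in percent) of each gene in its family's summed CPM per kb of exon model, for the RXR genes (left) and the RAR genes (right), 1 bar per library. Rxrg takes 62.1 to 73.5% of the RXR bar in sgRosa libraries and 49.7 to 56.9% in sgEgfr libraries, and Rarg takes 53.6% of the RAR bar in sgEgfr replicate 3.

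Rxrg was next set beside markers of the cells it is known from. The list of striatal-type neuron markers, many of which neurons of the central amygdala also express, had 15 of 18 genes tested, with 0 called, 2 positive and 13 negative log2 fold changes and a median of -0.73. Its groups were separated, all lower in sgEgfr, for 5 of 15 genes, beside 7.60% of all tested genes. These were Gng7, a G protein gamma subunit (log2 fold change -1.20), Penk, the proenkephalin gene (-1.97), Ppp1r1b, the DARPP-32 gene (-0.66), Meis2, a homeobox gene (-0.62), and Pde1b, a phosphodiesterase (-0.58). The dopamine receptor gene Drd1 measured 13.5, 11.3 and 4.05 CPM in sgRosa and 4.48, 5.58 and 7.01 CPM in sgEgfr. Drd2 had 22, 8 and 5 counts in sgRosa and 1, 4 and 2 in sgEgfr, too few to be tested. The summed level of the whole list was 1448, 1325 and 1045 CPM in sgRosa and 1003, 843 and 979 CPM in sgEgfr, and no marker was at 0 in any library. The mean log2 CPM of the 15 tested markers, in which each gene weighs equally, was highest in sgRosa replicates 1 and 2 (5.83 and 5.87) and overlapped otherwise, at 4.89 in sgRosa replicate 3 and 4.65 to 4.94 in sgEgfr. The summed markers and Rxrg were thus both lower in all 3 sgEgfr libraries, and the part of cell makeup in the Rxrg value was not tested. In a fit with the striatal-type mean as covariate, a setting picked with these data in view, the log2 fold change of Rxrg was -0.67 and that of Rarb 0.32.

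Several marker lists of other cell types also lay to one side of 0, and others were mixed. All 9 tested inhibitory neuron genes had negative values, with a median log2 fold change of -0.96, and all 12 excitatory neuron genes had positive ones, with a median of 0.84. The summed inhibitory list measured 258, 274 and 106.5 CPM in sgRosa and 69.3, 118 and 110 CPM in sgEgfr. For the excitatory list the sums were 1461, 1069 and 3208 CPM in sgRosa and 3006, 1935 and 2446 CPM in sgEgfr. Both overlapped between the groups, and only sgRosa replicates 1 and 2 stood apart from the other libraries. All 15 oligodendrocyte genes were negative with a median of -0.82, but their summed level overlapped between the groups, at 27930 to 81300 CPM in sgRosa and 24370 to 63690 CPM in sgEgfr. All 16 pan-neuronal genes were positive with a median of 0.35 and summed levels of 3192 to 8023 CPM in sgRosa and 4417 to 7278 CPM in sgEgfr. No gene of these 4 lists was at 0 in any library except Dlx2 and Dlx5, which were at 0 in some. All 11 tested microglia genes were positive with a median of 1.37, at summed levels of 75.9 to 192 CPM in sgRosa and 41.7 to 563 CPM in sgEgfr. All 7 erythroid genes were positive with a median of 1.55, at 409 to 1072 CPM in sgRosa and 592 to 4063 CPM in sgEgfr. Both sums overlapped between the groups. The 15 astrocyte genes were mixed, with 5 positive and 10 negative values and a median of -0.14. In a fit with the oligodendrocyte mean as covariate, likewise picked with these data in view, Rxrg had a log2 fold change of -0.94, and with the pan-neuronal mean it had -0.92.

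**Figure D3:**
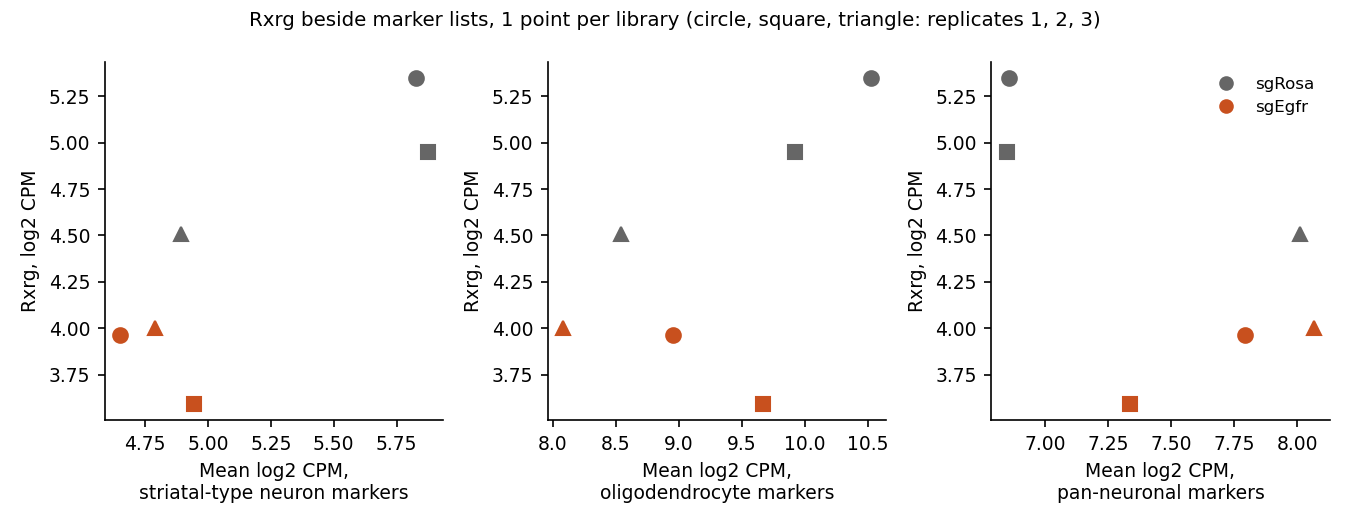
Each point is 1 library (grey for sgRosa, orange for sgEgfr), with the log2 CPM of Rxrg on the vertical axis and the mean log2 CPM of 15 striatal-type, 15 oligodendrocyte or 16 pan-neuronal markers on the horizontal axis. The 3 sgEgfr libraries are lowest for Rxrg in each panel, and sgRosa replicates 1 and 2 are highest for Rxrg and for the striatal-type mean.

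Of 25 marker and pathway lists compared by profile, the striatal-type list lay nearest to Rxrg. The measure was the root-mean-square distance between log2 CPM profiles centred on their mean over the 6 libraries. It was 0.31 for that list and 0.42 for the inhibitory neuron list, the next. The striatal-type list was about as close to Rxra (0.30) and Rarb (0.33). Other lists lay nearer to both of these, such as the PPAR-RXR targets (Rxra 0.23, Rarb 0.25). Rxrg was chosen as lower in sgEgfr, so lists with lower values there tend to lie near it by that choice. The ranking is therefore only a description. Among 12293 single genes the 3 nearest to Rxrg were Alkbh3, a nucleic acid demethylase, at 0.13, Zfp677, a zinc finger gene, at 0.17, and Gpatch3 at 0.17. The 3 nearest to Rarb were Tmem154, Ptpn21 and Ppp2r1b at 0.12 to 0.14. For Rxra they were Calcoco1, Ccnd3 and Tbc1d19, and for Rxrb they were Arl6ip6, Hacd2 and Eif2s1. Those of Rara were Ssh1, Atad5 and Mga, and those of Rarg, the most variable receptor, were Frem2, Tmem252 and Zfp81 at 0.20 to 0.28. With 6 libraries and so many genes, some profiles lie close in any case.

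Retinoic acid reaches the receptors through uptake of retinol, its oxidation, and the removal of the acid by CYP26 enzymes. Of 11 genes for uptake and binding 6 were tested and 0 called, 3 with positive and 3 with negative log2 fold changes. Stra6, the receptor for retinol-binding protein, measured 11.0, 20.5 and 24.6 CPM in sgRosa and 24.5, 26.3 and 17.2 CPM in sgEgfr. Fabp5, a lipid chaperone that can carry retinoic acid, measured 18.8, 15.04 and 16.5 CPM in sgRosa and 21.5, 31.2 and 19.1 CPM in sgEgfr. The Fabp5 groups did not overlap, and its log2 fold change was 0.51 (SE 0.27). It was the 1 of 6 tested genes separated higher, beside 5.80% of all tested genes, and 0 were separated lower. The retinoic acid-binding gene Crabp2, at 0.28 to 17.0 CPM, varied too much between libraries for any comparison. Stra6l had 0 counts in all 6 libraries.

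Of 20 genes for enzymes of retinol, retinal and retinoic acid synthesis 11 were tested and 0 called, with 3 positive and 8 negative values and a median log2 fold change of -0.41. Retsat, the retinol saturase, measured 10.1, 8.35 and 6.30 CPM in sgRosa and 5.33, 4.46 and 4.68 CPM in sgEgfr, a log2 fold change of -0.76 (SE 0.33). Groups were separated in the same direction for the retinal reductase Rdh11 (-0.45) and for Akr1b3 (-0.38). They were separated in the opposite direction for the dehydrogenase Rdh13, at 26.7, 56.8 and 58.8 CPM in sgRosa and 84.2, 69.2 and 106 CPM in sgEgfr. In this list 3 of 11 tested genes were thus separated lower and 1 higher, beside 7.60% and 5.80% of all tested genes. Of the retinal dehydrogenases that make retinoic acid, Aldh1a1 measured 11.4 to 26.7 CPM in sgRosa and 7.01 to 24.1 CPM in sgEgfr, with a log2 fold change of -0.28 (SE 0.49). Aldh1a2 and Aldh1a3 were too low to be tested. The retinal reductase Dhrs3, itself known to be induced by retinoic acid, had a log2 fold change of 0.34 (0.3450, SE 0.41).

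The degrading enzyme Cyp26b1, which retinoic acid is known to induce in many tissues, was the only tested gene of 4 on its list. It measured 14.6, 8.35 and 10.2 CPM in sgRosa and 24.1, 19.6 and 15.98 CPM in sgEgfr. Every sgEgfr library lay above every sgRosa library, with a log2 fold change of 0.85 (SE 0.30, edgeR adjusted p = 0.781), opposite in sign to that of Rxrg. Cyp26a1 and Cyp26c1 were at or near 0 in all 6 libraries. Of 30 genes known to respond to retinoic acid, a list that also holds Cyp26b1, 21 were tested and 0 called. Groups were separated higher for 2 of the 21, Cyp26b1 and Nrip1, and lower for 1, Meis2 (log2 fold change -0.62). Over all tested genes the shares separated higher and lower were 5.80% and 7.60%. Values of the 21 were positive for 12 and negative for 9 with a median log2 fold change of 0.28, which was -0.03 by limma-voom. It was 0.06 on leaving out sgRosa replicate 1, 0.13 on leaving out sgRosa replicate 3, 0.18 on leaving out sgEgfr replicate 2 and 0.43 on leaving out sgRosa replicate 2.

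**Figure D4:**
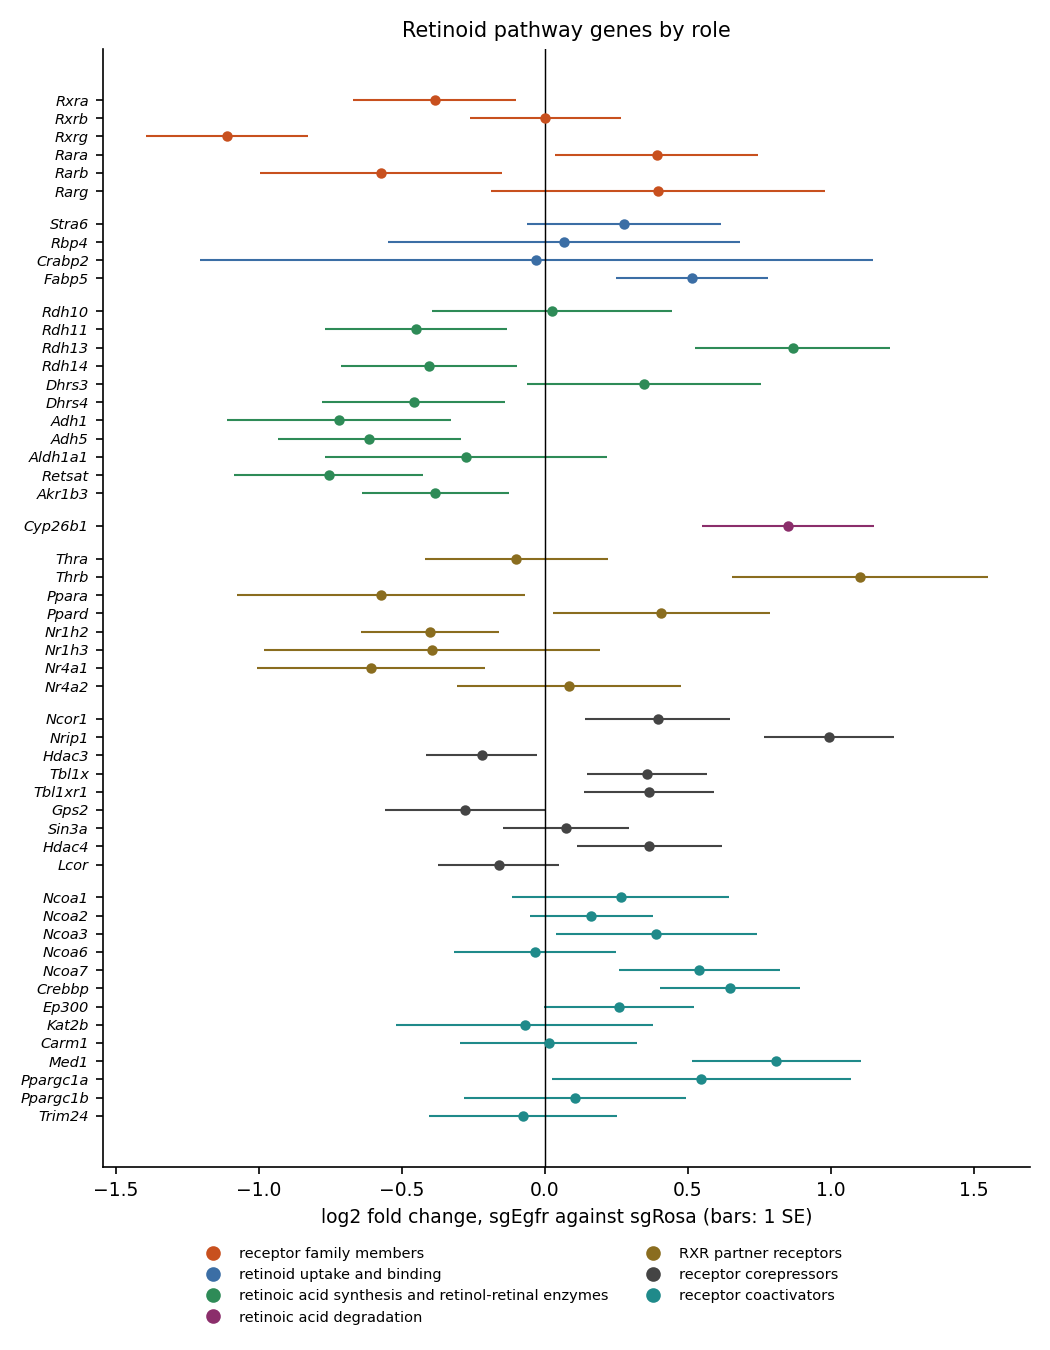
Log2 fold change of sgEgfr against sgRosa (horizontal axis, bars of 1 SE) for the receptors and most tested retinoid pathway genes, grouped by role and coloured by list. Rxrg at -1.11 is the lowest of the receptors, while Cyp26b1, Nrip1, Thrb, Rdh13 and Med1 lie between 0.81 and 1.10.

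Corepressors hold unliganded receptors inactive, and all 10 listed genes were tested, 0 called, 7 positive and 3 negative with a median log2 fold change of 0.23. Nrip1 (RIP140), a corepressor that binds liganded receptors and is itself a retinoic acid target, measured 39.1, 36.3 and 41.5 CPM in sgRosa and 68.9, 95.9 and 68.2 CPM in sgEgfr. The groups were far apart, with a log2 fold change of 0.99 (SE 0.23), yet neither edgeR (adjusted p = 0.781) nor DESeq2 (adjusted p = 0.060) called it. Ncor1, a classic corepressor of retinoic acid receptors, had a log2 fold change of 0.39 (SE 0.25), and its groups overlapped. Separated groups were also found for Tbl1x (0.36) and Tbl1xr1 (0.36), higher in sgEgfr, and for the histone deacetylase Hdac3 (-0.22), lower. With Nrip1, 3 of 10 genes were separated higher and 1 lower, beside 5.80% and 7.60% of all tested genes. The summed level of the 10 genes was 539 to 616 CPM in sgRosa and 679 to 719 CPM in sgEgfr.

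Of 13 coactivator genes all were tested and 0 called, with 10 positive and 3 negative values and a median log2 fold change of 0.26, which was 0.09 without sgRosa replicate 2. The acetyltransferase gene Crebbp measured 300.3, 282 and 240.3 CPM in sgRosa and 458, 387 and 442 CPM in sgEgfr. Med1, the Mediator subunit that binds nuclear receptors, measured 169, 196 and 101 CPM in sgRosa and 280.0, 252 and 283 CPM in sgEgfr. Both had separated groups, with log2 fold changes of 0.65 (SE 0.25) and 0.81 (SE 0.30). They were the 2 of 13 genes separated higher, beside 5.80% of all tested genes, and 0 were separated lower, beside 7.60%. The receptor coactivators Ncoa1, Ncoa2 and Ncoa3 had smaller values of 0.26, 0.16 and 0.39, with overlapping groups. The summed level of the 13 genes was 710 to 817 CPM in sgRosa and 1082 to 1155 CPM in sgEgfr.

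**Figure D5:**
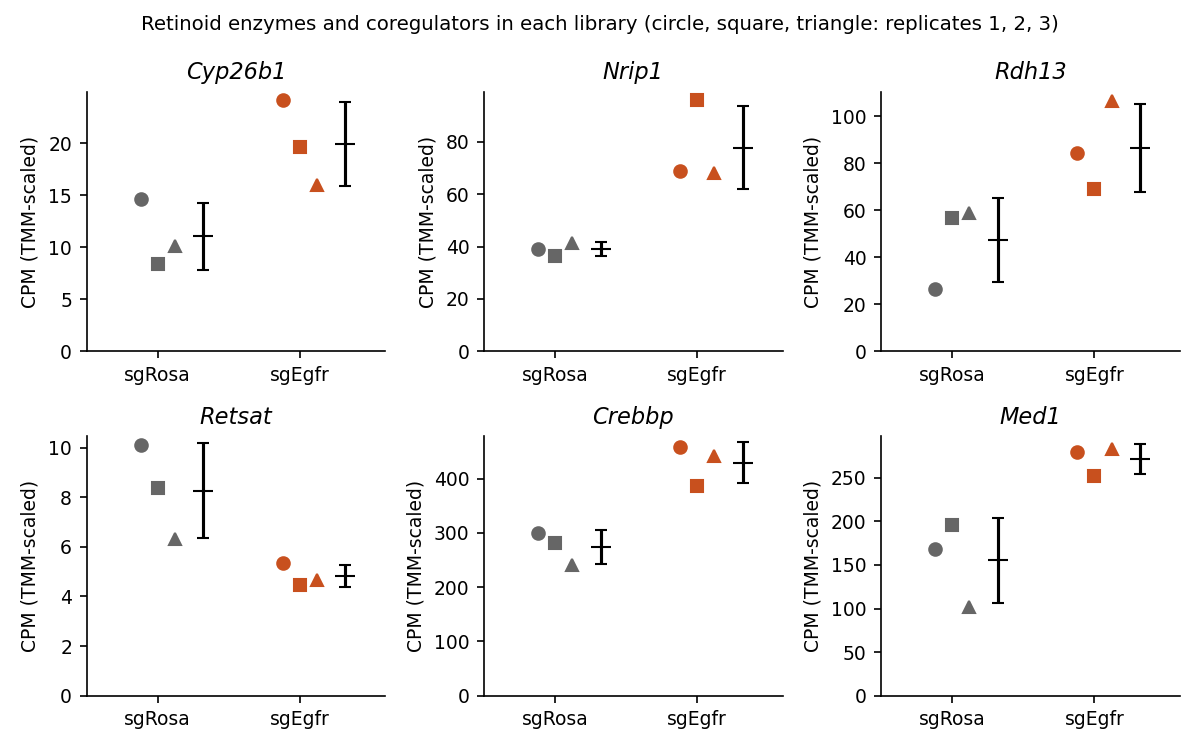
TMM-scaled CPM (vertical axis) of 2 enzymes that handle retinoids or retinoic acid and were higher in every sgEgfr library (Cyp26b1, Rdh13), 1 that was lower (Retsat) and 3 coregulators (Nrip1, Crebbp, Med1) in each library, with black bars for the mean and SD. None was called by edgeR, and the 3 sgEgfr libraries do not overlap the 3 sgRosa libraries for any of the 6.

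The receptors that pair with retinoid X receptors had 8 of 13 genes tested and 0 called, with 3 positive and 5 negative values and a median log2 fold change of -0.25. That median was 0.05 on leaving out sgRosa replicate 2, -0.09 on leaving out sgEgfr replicate 2, -0.16 on leaving out sgEgfr replicate 3 and 0.02 with the stricter filter. Thrb, a thyroid hormone receptor, measured 24.2, 50.1 and 78.0 CPM in sgRosa and 133, 67.8 and 127 CPM in sgEgfr, with a log2 fold change of 1.10 (SE 0.45). The groups of Thrb overlapped through sgRosa replicate 3. The other thyroid hormone receptor gene, Thra, was higher in level at 223 to 472 CPM over both groups and had a log2 fold change of -0.10 (-0.0997, SE 0.32). Nr1h2, the LXR beta gene, had -0.40 (SE 0.24), and the activity-induced gene Nr4a1, which was highest in sgRosa replicate 2 at 945 CPM, had -0.61 (SE 0.40).

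Targets of these pairs were described in the same way. Of 15 PPAR-RXR target genes 15 were tested and 0 called, 2 positive and 13 negative with a median log2 fold change of -0.38. That median was 0.01 with the pan-neuronal mean as a covariate and 0.19 with the striatal-type mean. It was -0.64 on leaving out sgEgfr replicate 1, -0.62 on leaving out sgRosa replicate 3 and -0.19 on leaving out sgEgfr replicate 3. Ech1, a gene of fatty acid oxidation, was the only one with separated groups (log2 fold change -0.95, SE 0.35), 1 of 15 beside 7.60% lower over all tested genes. Of 11 LXR-RXR target genes all were tested and 0 called, 4 positive and 7 negative with a median of -0.26, which was 0.46 with the striatal-type mean and 0.03 with the pan-neuronal mean as a covariate. It was -0.10 on leaving out sgRosa replicate 2 and -0.16 on leaving out sgRosa replicate 1. Apoe was the only one of the 11 with separated groups, lower in sgEgfr (log2 fold change -0.67, SE 0.44), beside 7.60% over all tested genes. Its lowest sgRosa library, at 708.5 CPM, was almost level with its highest sgEgfr library, at 705.3 CPM. Of 11 thyroid hormone receptor targets 7 were tested and 0 called, 4 positive and 3 negative with a median of 0.04. The sign of that median was not stable, since it was -0.18 on leaving out sgRosa replicate 1, -0.14 on leaving out sgEgfr replicate 1 and 0.26 on leaving out sgRosa replicate 3. Klf9, a transcription factor gene that thyroid hormone induces, was separated and higher in sgEgfr (0.48, SE 0.26), 1 of 7 beside 5.80% over all tested genes.

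Retinoic acid receptor pairs bind direct repeats of a half-site, and the classic element has 5 bases between the repeats. RefSeq promoter windows of GRCm38.p6, from 250 bases before to 50 after each annotated start, were available for all 6 receptors, 13 windows in all. They were searched on both strands for pairs of the half-sites AGGTCA and GGGTCA, together with AGTTCA and GGTTCA, in the same orientation. With 5 bases between them such a pair occurred in 32 of 32851 windows (0.0974%), with 2 bases in 88 and with 1 base in 73. These windows leave out a whole chromosome, on which none of the 6 receptors lies. A single half-site occurred in 43.7% of windows and so marks little. Among the receptors only Rarb held a pair, at 5 bases of spacing, from 53 to 37 bases before its start. This is the textbook response element through which retinoic acid induces Rarb. The 250 bases before that start, on the minus strand at chr14:16575477-16575726, are shown with the 2 half-sites of the pair in capitals. The Rarb window holds 3 half-sites in all, and the one outside the pair is left in lower case.
Rarb: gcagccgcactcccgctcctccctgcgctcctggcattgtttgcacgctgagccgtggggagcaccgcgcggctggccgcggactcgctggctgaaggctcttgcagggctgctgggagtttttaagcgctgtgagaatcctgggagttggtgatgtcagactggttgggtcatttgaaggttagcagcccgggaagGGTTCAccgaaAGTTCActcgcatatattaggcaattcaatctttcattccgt
Of the other pathway genes searched, Cyp26a1 held a pair at 5 bases, on the opposite strand, printed here as read on the strand of the gene.
Cyp26a1: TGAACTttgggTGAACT
Neither of the 2 Rxrg windows held a repeat. The 250 bases before each Rxrg start, on the plus strand at chr1:167598112-167598361 and chr1:167618015-167618264, are shown because Rxrg is the receptor with the widest gap, and capitals mark their single half-sites on either strand.
Rxrg, first start: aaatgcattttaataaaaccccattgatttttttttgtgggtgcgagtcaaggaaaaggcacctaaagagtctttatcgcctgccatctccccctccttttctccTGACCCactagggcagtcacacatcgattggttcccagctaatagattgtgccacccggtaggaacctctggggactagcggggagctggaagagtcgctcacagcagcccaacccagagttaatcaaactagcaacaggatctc
Rxrg, second start: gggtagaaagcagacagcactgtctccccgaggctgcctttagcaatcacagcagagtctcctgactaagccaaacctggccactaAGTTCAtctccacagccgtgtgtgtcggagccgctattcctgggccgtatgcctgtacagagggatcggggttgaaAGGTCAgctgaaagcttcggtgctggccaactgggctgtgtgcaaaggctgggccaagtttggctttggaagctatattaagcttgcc
The absence of a repeat says only that these letters are not in these windows. The gene with the element, Rarb, and the gene with the widest gap, Rxrg, were not the same receptor, and Cyp26a1, which also holds the element, had at most 2 counts in any library. Whether the element bears on any of these levels was not tested.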

How the data were processed

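The authors deposited raw counts per gene for each library, with no normalization, as separate tables and as a series table whose 6 matched columns were identical to them; 3 further columns matched no sample and were not used. The submitters' processing notes name FastQC 0.11.9, MultiQC 1.11, STAR 2.7.5c, fastp 0.23.2, edgeR 3.42.4, featureCounts 2.0.1 and mm10, with no order or role. Options, annotation and strand setting are not given in the sources used here. By the labels' protocols, neurons were isolated magnetically after papain digestion, PicoPure columns gave the RNA, and 5 ng went into a NEBNext library. PCR reads without molecular identifiers are not independent molecules, so a floor set in counts may understate even the counting error.

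Of 35976 genes, 13159 passed filterByExpr (minimum count 10, minimum total 15). They were fitted by edgeR 4.0.16 in R 4.3.3 (TMM scaling, robust quasi-likelihood, group only, threshold 0.05), after the script was tested on simulated data. The common biological coefficient of variation was 0.355. CPM are TMM-scaled, SDs are over 3 libraries, and log2 profiles use a prior count of 2. Positions and exon lengths come from GENCODE for GRCm38, promoters from RefSeq. No libraries agreed within sampling noise (lowest chi-square per degree of freedom 10.4).

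The receptors and lists were chosen with earlier results of these data known. All 6 receptors were to be named. Any tested gene of the uptake, synthesis and degradation lists could be named, and from other lists up to 4 genes with the smallest p plus preset ones, with the 3 genes nearest in profile. Pde1b, Tbl1x, Tbl1xr1, Hdac3, Ncoa1, Ncoa2, Ncoa3, Dlx2 and Dlx5 were named where this rule or a count of separated genes called for them, some after their values were seen. Alternatives were DESeq2 1.42.0, limma-voom (limma 3.58.1), edgeR's older quasi-likelihood fit, scaling by library size, RLE or upper quartile, a stricter filter or none, the replicate number as a block, leaving out each library or both with choroid plexus RNA, the longest transcript as length, and the pan-neuronal mean as a covariate. Some genes that the rule allows are not reported here. The striatal-type and oligodendrocyte covariates were chosen after seeing the data.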

Additional observations from a re-analysis of the deposited data

How the results depend on the processing

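Over 19 alternatives the number of genes called was 0 in both directions, except by DESeq2, which called 31 higher and 2 lower and left 5114 adjusted p-values undefined. Leaving out each library in turn gave 0 higher and 0 lower genes each time. The log2 fold change of Rxrg ranged from -1.36 to -0.67 with adjusted p-values from 0.118 to 0.999. That of Rxra stayed below 0 (-0.57 to -0.09) and that of Rara above 0 (0.20 to 0.61). The signs of Rxrb (-0.15 to 0.18), Rarb (-1.11 to 0.32) and Rarg (-0.08 to 1.54) were not stable, and the sign of Rxrb also changed with upper-quartile scaling (-0.03). The cause of these shifts was not tested. With the longest transcript as length the share of Rxrg was 63.6% in sgRosa and 46.8% in sgEgfr.

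With the replicate number as a block 0 genes were called in either direction, 1316 had an unadjusted p under 0.05, and the log2 fold change for Rxrg came to -1.09 (adjusted p by edgeR 0.490). Libraries with the same number had deviations that correlated at -0.03, 0.48 and 0.28, and those with different numbers at -0.455 to 0.207. These values do not settle whether the numbers mark a pairing, and the main fit did not take them as a pairing.

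Depth limits the low receptors most: Rara, Rarb and Rarg had as few as 12, 14 and 18 counts in a library, and 3 libraries a group leave wide intervals.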

Other observations

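All genes with a repeat in a searched RefSeq promoter window, Rarb and Cyp26a1 among them, were looked up in the same comparison. Genes of the chromosome left out of the search are not among them. Of 31 genes with the half-sites 5 bases apart, 7 were tested, 3 with positive and 4 with negative log2 fold changes, and 0 were called. Rarb, described above, was 1 of the 7 and among the negative ones. Groups were separated lower for 1 of the 7 and higher for 0, beside 7.60% and 5.80% of all tested genes. Of 84 genes with 2 bases between the half-sites 12 were tested, 3 positive and 9 negative, with a median log2 fold change of -0.20. Of 71 genes with 1 base between them, the spacing that pairs of retinoid X receptors and PPARs bind, 27 were tested, 10 positive and 17 negative, with a median of -0.14. Over all tested genes 53.7% were negative. Groups were separated for 6 of the 27 genes, 3 in each direction, beside 7.60% lower and 5.80% higher over all tested genes, and 0 were called. With so few tested genes per spacing these counts are descriptions of the libraries, and the letters of a promoter do not show that a receptor binds there.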
